A study of Mus musculus with 6 samples.

Results

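Lung tumors of mice were described for genes that hypoxia-inducible factors (HIFs) are known to switch on and that do not serve glycolysis. These genes were Adm, Ndrg1, Car9, Bnip3, Bnip3l, P4ha1, P4ha2, Ankrd37, Kdm3a and Ddit4. They were chosen by gene symbol, as 10 of the 31130 genes counted in each tumor. The rule uses no measured value, although the list was drawn up with earlier results of these data known. The tumors were removed on day 21, and each model, LC and IP + LC, contributed 3 of them. All mice were wild-type C57BL/6 females aged 6 to 8 weeks. On day 14 the left lung was injected in both models with EGFP-expressing Lewis lung carcinoma (LLC) cells, an established line. The IP + LC model had been given bleomycin, which causes interstitial pneumonia and fibrosis, by oropharyngeal aspiration at 2 mg/kg 14 days before the cells. The scheme of the LC model has saline in its place. All 6 tumors therefore came from 1 injected line, and no lung without tumor and no fibrotic lung without tumor was analysed here. RNA was counted as unique molecular identifiers (UMIs), so that each number stands for molecules captured at the 3′ end of a transcript and not for amplified copies. The comparison asks whether the tumor grown in the injured lung held more or less RNA of these genes.

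When oxygen is sufficient, prolyl hydroxylases mark the HIF alpha subunits for destruction. When it is scarce, the alpha subunits (encoded by Hif1a and Epas1) persist, pair with ARNT and bind a short core motif near their target genes. One branch of the targets raises glucose uptake and glycolysis. The genes described here belong to the other branches: a secreted vasodilator peptide (Adm), pH control at the cell surface (Car9), removal of mitochondria (Bnip3, Bnip3l), maturation of collagen (P4ha1, P4ha2), demethylation of histone H3 (Kdm3a), braking of mTORC1 (Ddit4), and the stress-responsive Ndrg1 and Ankrd37.

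The core motif was looked for as ACGTG or GCGTG on both strands in the RefSeq promoter windows of GRCm38.p6, which run from 250 bases before to 50 bases after a start site. A window was at hand for 8 of the 10 genes; Ndrg1 and Bnip3l had none. These genes had 10 windows, 3 of them of Kdm3a, and 8 of the 10 windows held at least 1 match; the other 2 were windows of Kdm3a. Counted by gene, 8 of 8 held a match and 6 held ACGTG. Over 32851 windows of the same length, 43.8% held either motif, 19.6% held ACGTG and 20.6% held 2 or more matches. The windows of Adm, P4ha1 and Bnip3 are printed up to the RefSeq start site, 5′ to 3′ on the strand of the gene and with every match in capitals. CACGT and CACGC are the motifs read on the other strand, and in Bnip3 both forms of ACGTG overlap in CACGTG. Adm is shown because its RNA differed between the models. P4ha1 is shown because its estimate was higher in the IP + LC group without passing the test. Bnip3 is shown because it held the most matches, 5, counted on both strands. With overlapping matches counted once, Bnip3 held 4 sites, as many as P4ha2.
Adm, chr7:110627407-110627656, + strand: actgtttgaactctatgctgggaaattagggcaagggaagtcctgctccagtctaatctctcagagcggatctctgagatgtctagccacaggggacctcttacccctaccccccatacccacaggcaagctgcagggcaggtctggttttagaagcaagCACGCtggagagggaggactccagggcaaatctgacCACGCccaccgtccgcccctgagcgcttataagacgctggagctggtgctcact
P4ha1, chr10:59323046-59323295, + strand: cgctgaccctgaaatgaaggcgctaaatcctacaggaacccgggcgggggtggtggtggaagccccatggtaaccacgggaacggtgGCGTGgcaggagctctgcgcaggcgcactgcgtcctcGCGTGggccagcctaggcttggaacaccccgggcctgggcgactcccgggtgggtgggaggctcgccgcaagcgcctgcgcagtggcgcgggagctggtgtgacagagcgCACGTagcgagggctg
Bnip3, chr7:138909507-138909756, - strand: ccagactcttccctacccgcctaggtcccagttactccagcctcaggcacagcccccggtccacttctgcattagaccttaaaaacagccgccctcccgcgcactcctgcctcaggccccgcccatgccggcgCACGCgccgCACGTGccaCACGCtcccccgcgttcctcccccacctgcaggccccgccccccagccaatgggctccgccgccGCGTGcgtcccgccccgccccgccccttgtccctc
GENCODE places the start of Bnip3 a little further upstream, so the last printed bases of Bnip3 lie inside the gene as located here. A match is a run of letters and not a measured binding site, and the files hold no measurement of binding.

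**Figure D1:**
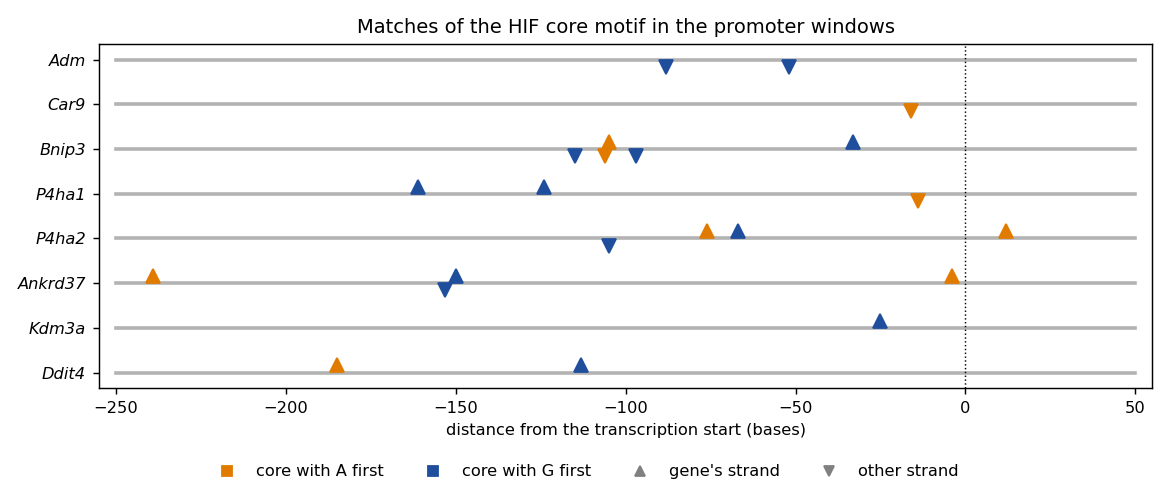
Matches of the HIF core motif (ACGTG in orange, GCGTG in blue, pointing up on the strand of the gene and down on the other) in the promoter window of the 8 genes with a RefSeq window; the horizontal axis is the distance from the transcription start in bases, and Kdm3a is drawn by the first of its windows. Matches range from 1 in Car9 and Kdm3a to 5 in Bnip3, where the overlap in CACGTG counts on both strands.

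The libraries held 592733 to 1379759 UMIs (LC) and 1336919 to 1631066 UMIs (IP + LC). The 10 genes together gave 245 to 709 UMIs per tumor, so that most of them rest on few molecules. Levels are given as CPM, the UMIs of a gene relative to a total for the library, after scaling by the trimmed mean of M values (TMM). This total holds only the UMIs of the 11240 genes tested, and not all UMIs of the library. A gene was called higher or lower when its adjusted p was below 0.1 in edgeR's quasi-likelihood test over 11240 genes. Of these genes, 16.8% were called higher and 19.6% lower in the tumors of the IP + LC model. Their median log2 fold change was 0.02. LC replicate 1, the library with the fewest UMIs, stood apart from the other LC tumors, and values without it are given where they alter a result.

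Of the 8 genes that passed the filter on low counts, Adm and Bnip3l were lower in the IP + LC group. None was higher and 6 were not called, against 16.8% higher and 19.6% lower over all genes. With 8 genes, these counts were not read as particular to the list. Their median log2 fold change was 0.02, the same as over all genes to 2 decimals, and 4 of the 8 estimates were positive. At an unadjusted p below 0.05 the count of higher genes was also 0 by edgeR. DESeq2 called 0 higher, and limma voom with quality weights called 2 (P4ha1 and Ndrg1). The tumors of the 2 models did not overlap for Adm and Bnip3l, with every IP + LC tumor below every LC tumor, which was so for 21.5% of all genes tested. Car9 and Bnip3 had too few UMIs to be tested.

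**Figure D2:**
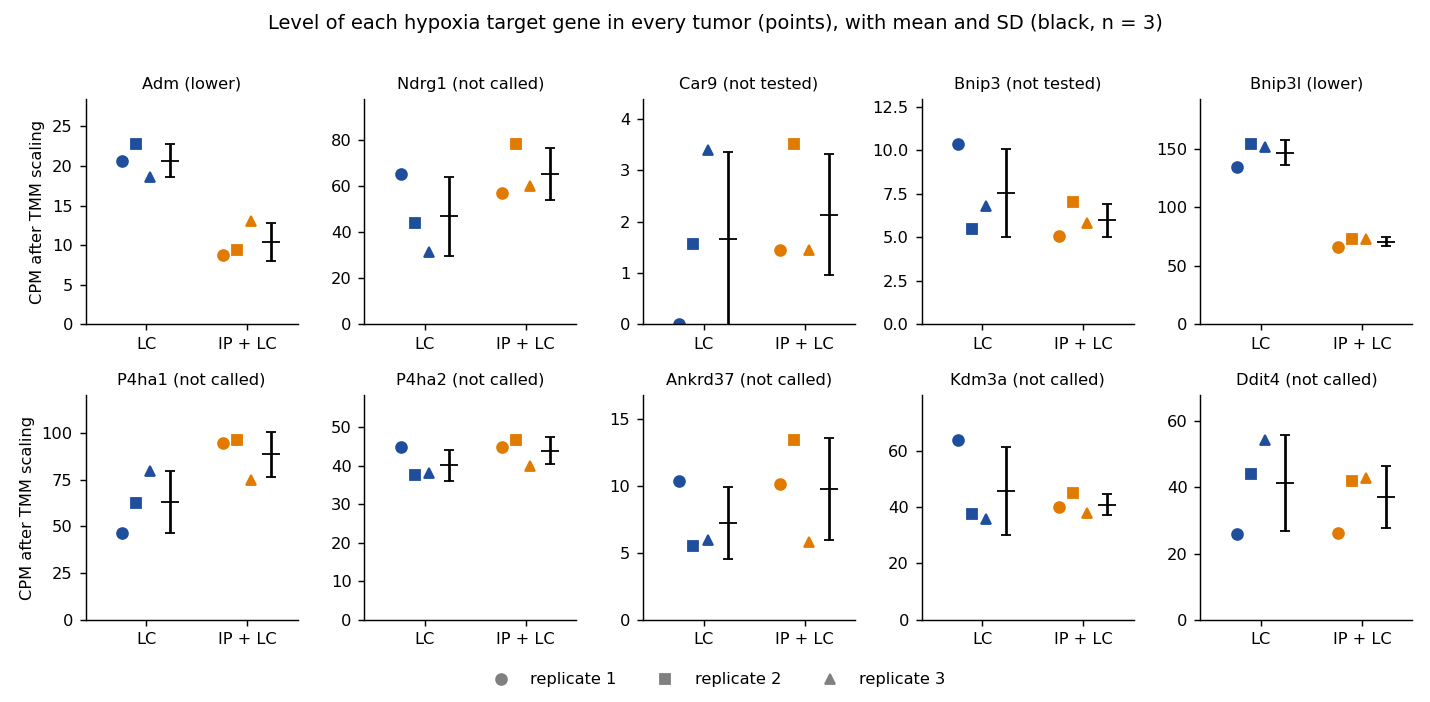
Level of each of the 10 genes in CPM after TMM scaling (vertical axes from 0, each gene on its own scale) in every tumor of the LC (blue) and IP + LC (orange) group; black bars are the mean and SD of 3 tumors, and the LC bar of Car9 is cut at 0. Adm and Bnip3l are the 2 genes whose groups lie apart, Bnip3l at 134 to 154 against 66.0 to 72.6 CPM.

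Bnip3l (chr14:66985239-67008877, - strand; GRCm38, GENCODE M21) encodes NIX, a receptor in the outer membrane of mitochondria that recruits the autophagy machinery and is also required for the loss of mitochondria from maturing red cells. It was counted 78, 196 and 179 times in the LC tumors and 91, 124 and 100 times in the IP + LC tumors. The levels were 134, 154 and 152 CPM against 66.0, 72.4 and 72.6 CPM. The group means were 147 ± 10.6 and 70.3 ± 3.76 CPM (SD, n = 3 each), a spread of 7.24% and 5.35% of the mean. These are the lowest relative spreads of the 10 genes in both groups. The log2 fold change was -1.06 (SE 0.18, adjusted p = 0.00437), with a 95% interval from -1.48 to -0.64. The IP + LC level was thus 0.479 of the LC level. The call held under each of 16 other settings of scaling, filter, test, limit, depth and tumors, with log2 fold changes from -1.12 to -0.90. A processed copy of the gene, Bnip3l-ps, matches 1131 nucleotides at 99.38% identity and could take or give reads, but it received 4 UMIs over the 6 tumors.

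The 5 genes whose levels followed Bnip3l most closely, by the root-mean-square difference of centred log2(CPM + 4) over the 6 tumors, were Myo1d (0.0582), Sypl (0.0711), Me1 (0.0731), Pdgfra (0.0767) and Cds1 (0.0775). Their log2 fold changes ran from -1.20 to -1.04, which the choice by likeness over both groups fixes and which is given as a description. Pdgfra is also in the fibroblast marker list, of which 3 genes were called higher and 5 lower.

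Bnip3 (chr7:138890836-138909519, - strand), the hypoxia-inducible relative of Bnip3l, was counted 6, 7 and 8 times in the LC tumors and 7, 12 and 8 times in the IP + LC tumors. The levels were 7.53 ± 2.51 and 5.96 ± 0.973 CPM (SD, n = 3 each), and the groups overlapped. Without the filter on low counts the log2 fold change was -0.13 (SE 0.59, adjusted p = 0.917), so a change of the size seen for Bnip3l could not be told from none. A transcript listed as AC160336.1, named after its counts were seen, matches Bnip3 over 858 nucleotides at 98.25%. It received 60 UMIs against the 48 of Bnip3. Of the exonic bases of Bnip3 22.3% also overlap Gm45507 on the opposite strand. How reads were shared between these genes is not known, and their counts are uncertain. Within a tumor, the ratio of Bnip3 to Bnip3l UMIs (0.5 added to each count) was 0.0828, 0.0382 and 0.0474 in the LC tumors and 0.0820, 0.1004 and 0.0846 in the IP + LC tumors. LC replicate 1 lay between the IP + LC tumors. The log2 ratio was -4.24 ± 0.58 and -3.50 ± 0.16, a difference of 0.74 (exact permutation test, two-sided, p = 0.2). The smallest p that 3 tumors against 3 allow is 0.1. Without LC replicate 1 the difference was 1.06 (exact permutation p = 0.1, again the smallest possible).

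Among 20 tested partners of mitophagy, 2 were called higher and 6 lower. Their median log2 fold change was -0.15. Pink1, the kinase that marks damaged mitochondria, fell by 1.55 on the log2 scale (SE 0.21, adjusted p = 0.00151), and Map1lc3a, an LC3 protein of the autophagosome membrane, fell by 1.52 (SE 0.21, adjusted p = 0.00167). Bcl2, which binds BH3 proteins, rose by 0.81 (SE 0.25, adjusted p = 0.0395) and Phb2, an inner-membrane protein, by 0.70 (SE 0.26, adjusted p = 0.0779). The count of higher genes was 0 when any IP + LC tumor was left out, 1 without LC replicate 2 or 3, and 5 without LC replicate 1. The count of lower genes was 8 without LC replicate 1 and 6 otherwise.

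Adm (chr7:110627661-110629820, + strand) encodes adrenomedullin, a secreted peptide that relaxes vessels and keeps the endothelium tight. It was counted 12, 29 and 22 times in the LC tumors and 12, 16 and 18 times in the IP + LC tumors. The levels were 20.7, 22.7 and 18.6 CPM against 8.70, 9.34 and 13.1 CPM. The means were 20.7 ± 2.04 and 10.4 ± 2.36 CPM (SD, n = 3 each), and the lowest LC tumor stood above the highest IP + LC tumor. The log2 fold change was -0.997 (SE 0.29, adjusted p = 0.0334), or 0.501 of the LC level, with a 95% interval from -1.65 to -0.34. This call was less steady than that of Bnip3l and was kept under 11 of 16 settings. It was lost when LC replicate 2 (adjusted p = 0.132), IP + LC replicate 1 (adjusted p = 0.126) or IP + LC replicate 2 (adjusted p = 0.144) was left out. It was also lost when low counts were not filtered (adjusted p = 0.110). In 1 random thinning to 592733 UMIs per library the log2 fold change was -0.28 (adjusted p = 0.723).

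The receptors of adrenomedullin are complexes of Calcrl with the protein of Ramp2 or Ramp3, while Ramp1 makes Calcrl a receptor of the related peptide CGRP. Of 4 tested genes of the list, Calcrl, Ramp1 and Ramp2 were called lower. The count was 3 whichever tumor was left out and under the other settings. The fourth was Ackr3, an atypical receptor that takes up adrenomedullin, at 0.21 (SE 0.21, adjusted p = 0.479), and the median was -2.31. Ramp3 had too few UMIs to be tested, 5, 5 and 3 in the LC tumors and 9, 4 and 7 in the IP + LC tumors, and its levels overlapped. Ramp1, Ramp3 and Ackr3 were named after their values were seen. Calcrl had 197, 1113 and 1014 UMIs against 183, 146 and 219 in the LC and IP + LC tumors. It fell by 2.46 on the log2 scale (SE 0.39, adjusted p = 0.00304). Ramp2, the partner that makes Calcrl an adrenomedullin receptor, had 256, 792 and 590 UMIs against 141, 82 and 119. It fell by 2.73 (SE 0.31, adjusted p = 0.000993). The RNAs of Adm, Calcrl and Ramp2 were thus lower in the IP + LC tumors, which was not shown for Ramp3. Calcrl and Ramp2 are known from endothelium, and 10 of 10 endothelial markers were called lower too (median -1.70, 1476 to 2391 summed CPM against 512 to 627). The part of the endothelium in the receptor values was not tested. Whether they differ in size of change was not tested.

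P4ha1 (chr10:59323296-59373304, + strand) and P4ha2 (chr11:54100095-54131665, + strand) encode the catalytic alpha subunits of collagen prolyl 4-hydroxylase, which stabilizes the collagen triple helix. P4ha1 was counted 27, 80 and 94 times in the LC tumors and 131, 165 and 103 times in the IP + LC tumors. The levels were 46.5, 62.7 and 79.7 CPM against 94.99, 96.3 and 74.8 CPM. IP + LC replicate 3 lay below LC replicate 3, so the groups overlapped. The log2 fold change of P4ha1 was 0.47 (SE 0.24, adjusted p = 0.175), with a 95% interval from -0.07 to 1.01. It passed the test under 2 settings, scaling by library size only (0.64, adjusted p = 0.0680) and limma voom with quality weights (0.41, adjusted p = 0.0764). Scaling by library size also moved the median of all genes to 0.18. P4ha2 had 44.8, 37.6 and 38.1 CPM in the LC tumors and 44.96, 46.7 and 39.9 CPM in the IP + LC tumors. Its log2 fold change was 0.15 (SE 0.20, adjusted p = 0.621), with a 95% interval from -0.30 to 0.59.

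The ratio of P4ha1 to P4ha2 UMIs within a tumor was 1.04, 1.66 and 2.08 in the LC tumors, against 2.10, 2.06 and 1.86 in those of the IP + LC model. The log2 ratio was 0.61 ± 0.51 and 1.00 ± 0.092, with a difference of 0.39 (exact permutation test, two-sided, p = 0.3). The IP + LC tumors thus lay close together while the LC tumors spread, and the difference rested on single LC tumors: it was 0.11 without LC replicate 1 and 0.61 without LC replicate 3 (exact permutation p = 0.1, the smallest possible).

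**Figure D3:**
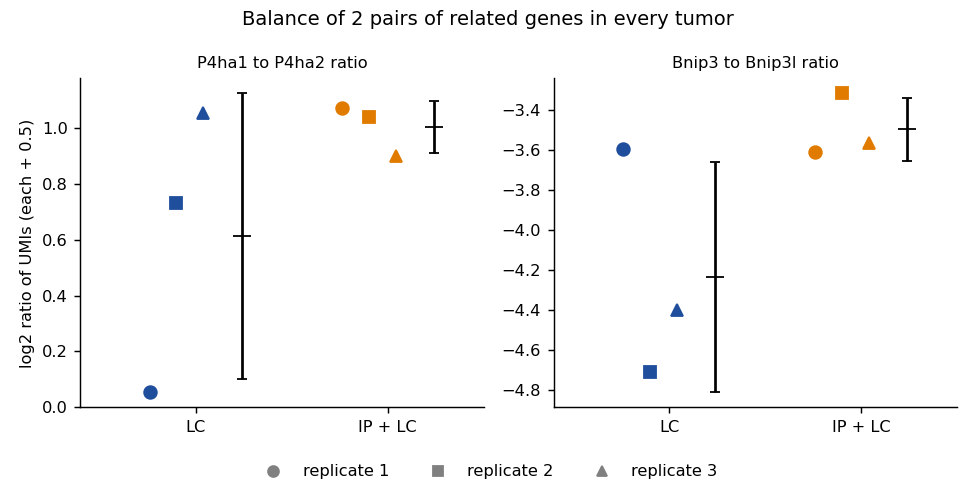
Log2 ratio of UMIs (0.5 added to each count) of P4ha1 to P4ha2 (left) and of Bnip3 to Bnip3l (right) in every tumor of the LC (blue) and IP + LC (orange) group, with the mean and SD of 3 tumors in black; the vertical axes do not start at the same value. The LC tumors spread more than the IP + LC tumors in both ratios, and the groups overlap in both.

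Of 18 other tested genes of collagen hydroxylation and secretion, 3 were called higher and 2 lower (median 0.38). Serpinh1, the collagen chaperone HSP47, had 317, 502 and 336 UMIs against 1330, 1445 and 1089. It rose by 1.09 on the log2 scale (SE 0.26, adjusted p = 0.0162). Loxl3, a lysyl oxidase that crosslinks collagen, rose by 1.24 (SE 0.39, adjusted p = 0.0419). Loxl1, another enzyme of that family, fell by 0.57 (SE 0.19, adjusted p = 0.0527), and P3h4, a cofactor of collagen prolyl 3-hydroxylation, fell by 0.72 (SE 0.25, adjusted p = 0.0570). Among 6 tested fibrillar collagens 4 were called higher and none lower, with a median of 1.04. Col5a3 rose by 2.11 (SE 0.37, adjusted p = 0.00463). Col5a1 rose from 24, 25 and 20 to 99, 116 and 90 UMIs (adjusted p = 0.00851). With 1 tumor left out, the collagen hydroxylation list held 8 higher genes without LC replicate 1, 1 without LC replicate 2 or IP + LC replicate 1, and 2 otherwise. It held no lower gene when LC replicate 2 or any IP + LC tumor was left out, and 1 without LC replicate 3. Under the other settings of scaling, filter, test, limit and depth, 1 to 9 genes of this list were called higher and 0 to 2 lower. The fibrillar collagens held 3 or 4 higher genes, except 6 without LC replicate 1.

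Ndrg1 (chr15:66929318-66969640, - strand) encodes a cytoplasmic protein of stress and differentiation that is induced strongly by low oxygen in many cells. Its counts were 38, 56 and 37 in the LC tumors and 79, 134 and 83 in the IP + LC tumors. The levels were 65.4, 43.9 and 31.4 CPM against 57.3, 78.2 and 60.3 CPM. LC replicate 1 was above 2 of the 3 IP + LC tumors. The log2 fold change was 0.53 (SE 0.28, adjusted p = 0.199), with a 95% interval from -0.11 to 1.17. Without LC replicate 1 it was 0.81 (adjusted p = 0.00600), and by limma voom with quality weights it was 0.69 (adjusted p = 0.0165). Ndrg1 was not called under the other settings. Its estimate was 0.29 without LC replicate 3 (adjusted p = 0.501) and 0.24 in the thinned libraries (adjusted p = 0.721). Of its exonic bases 8.43% overlap genes on the opposite strand (Gm17035 and Gm2895), and whether reads were counted by strand is not stated. Of the other members of the family 2 were tested and 1 was called lower, or 2 without LC replicate 1, IP + LC replicate 1 or IP + LC replicate 3. Ndrg2, a relative of Ndrg1, fell by 2.25 (SE 0.29, adjusted p = 0.00142).

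Ankrd37 (chr8:45996902-46005707, - strand), an ankyrin repeat protein and early HIF-1 target, had 10.3, 5.48 and 5.93 CPM in the LC tumors and 10.2, 13.4 and 5.81 CPM in the IP + LC tumors, from 6 to 23 UMIs per tumor. Its groups overlapped, and the log2 fold change was 0.56 (SE 0.44, adjusted p = 0.371), with a 95% interval from -0.43 to 1.55, the widest of the tested genes. It was 0.25 to 0.83 under the other settings and never called. Of its exonic bases 26.4% overlap Lrp2bp and Ufsp2 on the opposite strand.

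Kdm3a (chr6:71588972-71632990, - strand), a Jumonji enzyme that removes methyl groups from lysine 9 of histone H3, had 63.7, 37.6 and 35.6 CPM in the LC tumors and 39.9, 44.9 and 37.8 CPM in the IP + LC tumors. LC replicate 1 was above all other tumors, and the other 5 lay between 35.6 and 44.9 CPM. The log2 fold change was -0.10 (SE 0.26, adjusted p = 0.802), with a 95% interval from -0.69 to 0.48, and it was -0.26 to 0.17 under the other settings, the highest without LC replicate 1. Among 14 tested Jumonji demethylases 2 were called higher and 1 lower, with a median of 0.08. Kdm4a rose by 0.96 (SE 0.37, adjusted p = 0.0816) and Jmjd6 by 0.72 (SE 0.24, adjusted p = 0.0566). Without LC replicate 1 the counts were 4 and 3. Without any other tumor no gene was called lower, and 0 (LC replicate 3, IP + LC replicate 1 or 2) or 1 (replicate 2 of LC, replicate 3 of IP + LC) higher. Under the other settings 0 to 5 were called higher and 0 to 1 lower, with 0 and 0 by DESeq2.

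Ddit4 (chr10:59949669-59951834, - strand) encodes REDD1, which restrains mTORC1 in low oxygen, energy stress and glucocorticoid exposure. It had 25.8, 43.9 and 54.2 CPM in the LC tumors and 26.1, 42.0 and 42.8 CPM in the IP + LC tumors. In each group replicate 1 was the lowest, although replicate numbers did not pair the tumors. The log2 fold change was -0.20 (SE 0.30, adjusted p = 0.645), with a 95% interval from -0.88 to 0.47. Under the other settings it was -0.48 to 0.024 and never called. Among 14 tested genes of the mTORC1 brake and its targets 3 were called higher and 3 lower (median -0.06). The counts were 4 and 4 without LC replicate 1, and 1 gene was called higher without LC replicate 3 or any IP + LC tumor. Sesn2, a stress-induced sestrin, rose by 1.61 (SE 0.36, adjusted p = 0.0121), whereas its relative Sesn1 fell by 1.20 (SE 0.24, adjusted p = 0.00713). Txnip, an arrestin-like protein that lowers glucose uptake, fell by 1.43 (SE 0.24, adjusted p = 0.00371).

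Ddit4 is also induced by ATF4 and by glucocorticoids. Of 15 tested genes of the ATF4 stress response 6 were called higher and 3 lower (median 1.11). The amino acid transporter Slc7a5 rose by 2.65 (SE 0.47, adjusted p = 0.00468) and the serine synthesis enzyme Psat1 by 1.82 (SE 0.45, adjusted p = 0.0174). Vegfa, described with the further HIF targets, fell by 1.49, and Nupr1, a stress-induced chromatin protein, by 1.39 (SE 0.19, adjusted p = 0.00166). The counts were 9 and 3 without LC replicate 1, and 3 and 2 without LC replicate 2. Of 11 tested glucocorticoid-responsive genes 2 were called higher and 3 lower (median -0.41). Mt2, a metallothionein, rose by 2.10 (SE 0.55, adjusted p = 0.0220) and Dusp1, a phosphatase of MAP kinases, fell by 1.06 (SE 0.27, adjusted p = 0.0204). The counts were 4 and 6 when LC replicate 1 was left out, 1 and 2 when LC replicate 2 was, and 2 and 1 when IP + LC replicate 1 or 2 was.

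Car9 (chr4:43506966-43513729, + strand) encodes carbonic anhydrase IX, a cell-surface enzyme often used as a marker of hypoxic tumor cells. It was counted 0, 2 and 4 times in the LC tumors and 2, 6 and 2 times in the IP + LC tumors, 16 UMIs in all. Of its exonic bases 9.29% overlap Gm12454 on the opposite strand, which received 11 UMIs, so the counts of Car9 are uncertain. The 0 in LC replicate 1 allows up to 5.17 CPM (3 UMIs, counting error only), more than the level of every other tumor. Without the filter on low counts the log2 fold change was 0.32 (SE 1.05, adjusted p = 0.891), so that no difference was detectable at this depth. Among 10 tested carbonic anhydrases and acid transporters 3 were called higher and 4 lower (median 0.25). The lactate transporter Slc16a1 rose by 1.48 (SE 0.34, adjusted p = 0.0126), and Slc16a3, another, rose from 19, 20 and 19 to 64, 113 and 40 UMIs (adjusted p = 0.0393). Car3 fell by 2.81 (SE 0.46, adjusted p = 0.00348), and Car4, an enzyme of lung capillaries, by 2.78 (SE 0.27, adjusted p = 0.000821). With 1 tumor left out, 1 to 3 genes of this list were called higher and 4 or 5 lower. The count of 1 came when LC replicate 2, IP + LC replicate 1 or IP + LC replicate 2 was left out.

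Hif1a had 44, 81 and 73 UMIs in the LC tumors and 153, 245 and 126 in the IP + LC tumors, and it rose by 0.79 on the log2 scale (SE 0.23, adjusted p = 0.0322). Epas1, which encodes HIF-2 alpha and is abundant in lung endothelium, had 244, 1031 and 885 UMIs against 287, 197 and 271 and fell by 1.93 (SE 0.32, adjusted p = 0.00365). Hif1a thus rose while Epas1 fell, and the endothelial markers (10 of 10 lower, median -1.70) fell as Epas1 did. Their part in the fall of Epas1 was not tested. Egln3, an oxygen sensor that is itself a HIF target, had 15, 5 and 3 UMIs in the LC tumors and 31, 36 and 19 in the IP + LC tumors, with a log2 fold change of 1.21 (SE 0.66, adjusted p = 0.207). Of 11 tested HIF subunits and sensors 2 were called higher and 1 lower (median 0.20). The count of higher genes was 0 when replicate 2 of either group was left out, 1 without IP + LC replicate 3 and 5 without LC replicate 1.

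The glycolytic targets gave other counts than the genes described here. Of 17 tested, 12 were called higher and none lower (median 0.99), against 0 higher and 2 lower of the 8 tested non-glycolytic genes (median 0.02). Hk2, which phosphorylates glucose at the entry to glycolysis, rose by 2.69 (SE 0.30, adjusted p = 0.000993). Pgk1, a later enzyme, rose by 1.39 (SE 0.37, adjusted p = 0.0243), and Slc2a1, the glucose transporter GLUT1, by 1.20 (SE 0.31, adjusted p = 0.0210). The count of higher glycolytic genes was 15, 4 and 6 when LC replicate 1, 2 or 3 was left out. It was 7, 4 and 8 when IP + LC replicate 1, 2 or 3 was left out. Over all genes tested, 28.3%, 8.81% and 11.2% were called higher without LC replicate 1, 2 or 3. Without IP + LC replicate 1, 2 or 3 these shares were 9.25%, 7.61% and 11.1%. Without LC replicate 3 or IP + LC replicate 3, 1 glycolytic gene was called lower. Under the other settings 6 (thinned) to 15 were called higher, 8 with upper quartile scaling, and none lower. No test of one list against the other was made.

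Of 35 further HIF targets listed as non-glycolytic 32 were tested, and 8 were called higher and 8 lower (median 0.14). The higher genes included the glucose transporter Slc2a1, which is also in the glycolytic list. Without it 7 of 31 were called higher. Bhlhe40, a circadian and hypoxia-responsive repressor, rose by 1.46 (SE 0.23, adjusted p = 0.00312), and Siah2, a ubiquitin ligase that targets the oxygen sensors, by 1.32 (SE 0.31, adjusted p = 0.0153). Hilpda, a protein of lipid droplets, had 85, 257 and 247 UMIs against 49, 54 and 49 and fell by 2.45 (SE 0.22, adjusted p = 0.000716). Ppp1r3c, which promotes glycogen synthesis, fell by 1.71 (SE 0.35, adjusted p = 0.00820). Vegfa, the endothelial growth factor, had 117, 270 and 373 UMIs against 115, 129 and 141 and fell by 1.49 (SE 0.25, adjusted p = 0.00354). With LC replicate 1 left out 12 were called higher and 8 lower. With any other tumor left out 5 or 6 were called higher and 4 or 5 lower. Under the other settings 4 to 12 were called higher and 4 to 8 lower.

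**Figure D4:**
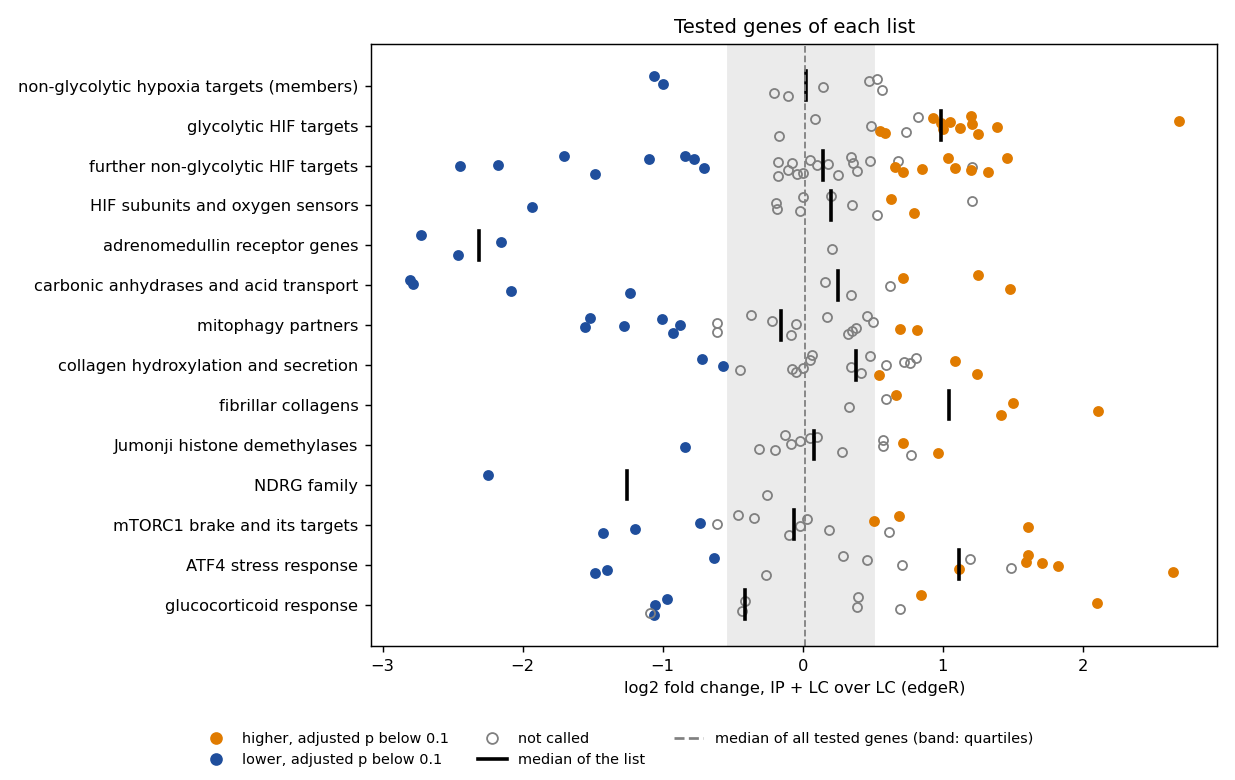
Log2 fold change (IP + LC over LC, horizontal axis) of every tested gene of each list, filled orange where called higher, filled blue where called lower and open where not called; black bars are list medians, the dashed line the median of all tested genes and the grey band their quartiles. The non-glycolytic hypoxia targets lie around 0 with Adm and Bnip3l to the left, the glycolytic targets have a median of 0.99, and the adrenomedullin receptor genes, Ackr3 included, one of -2.31.

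The labels call the cell type of these samples lung cancer cells, but the RNA is that of whole tumor tissue and held much RNA of host lung cells. Summed CPM of 9 airway markers ran from 49943 to 58847 in the LC tumors and from 3438 to 7351 in the IP + LC tumors, led by Scgb1a1, and 8 of 8 tested were called lower. Of 8 type 2 alveolar markers 7 were called lower (35991 to 45092 against 6568 to 11833, led by Sftpc). The same held for 6 of 7 type 1 markers (3112 to 5366 against 1016 to 1410, led by Ager). It held for 10 of 10 endothelial markers (1476 to 2391 against 512 to 627, led by Cldn5). Of 8 smooth muscle markers 7 were called lower (809 to 1272 against 273 to 354, led by Acta2), of 6 tested cardiac markers 6 (956 to 2066 against 156 to 396, led by Actc1). Of 6 tested neutrophil markers 3 were called lower (811 to 1969 against 160 to 334, led by S100a9). Of 12 proliferation genes 8 were called higher and none lower (255 to 1080 against 1527 to 1753, led by Top2a). Thus the levels of Bnip3l and Adm fell together with the RNA of these host cell types, and their part in either difference was not tested. In tissue RNA, fewer cells of a type and less RNA per cell cannot be told apart.

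For the remaining cell types the picture was mixed. Of 10 macrophage markers 4 were called higher and 2 lower (13262 to 15785 against 8023 to 9668, led by Lyz2). Lyz2 alone ran from 12374 to 13592 against 5473 to 7043 CPM, so the sum mainly follows Lyz2 and not the 4 higher genes. Of 10 fibroblast markers 3 were called higher and 5 lower (2214 to 2499 against 2455 to 2477, led by Col3a1). Of 7 tested T cell markers none was called (122 to 151 against 99.3 to 194, led by Trac). For T cells the count was also 0 at an unadjusted p below 0.05 in edgeR, by DESeq2 and by limma voom. For Bnip3l, which maturing red cells need, the erythroid list was read as well. The 4 tested erythroid genes, all globins, were called lower, but their summed level overlapped between the groups (1743 to 7433 against 769 to 2146 CPM, led by Hbb-bs). Klf1, the defining transcription factor of red cell precursors, had 0 UMIs in all 6 tumors, which allows 1.75 to 5.17 CPM per tumor (3 UMIs). Slc4a1, an anion exchanger of the red cell membrane, had 3 UMIs in all. Alas2, the first enzyme of heme synthesis in red cell precursors, had 20 UMIs, at 0 to 9.32 CPM in the LC and 0 to 2.18 CPM in the IP + LC tumors. Klf1, Slc4a1 and Alas2 were named after their values were seen.

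LC replicate 1 held the highest LC value of 5 of the 10 genes (Ndrg1, Bnip3, P4ha2, Ankrd37 and Kdm3a) and the lowest of 4 (Car9, Bnip3l, P4ha1 and Ddit4). It also had the most RNA of proliferation genes among the LC tumors (1080 CPM against 281 and 255) and of glycolytic targets (3387 CPM against 2165 and 1785). The part of these differences, and of its lower depth, in the values of the 10 genes was not tested.

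**Figure D5:**
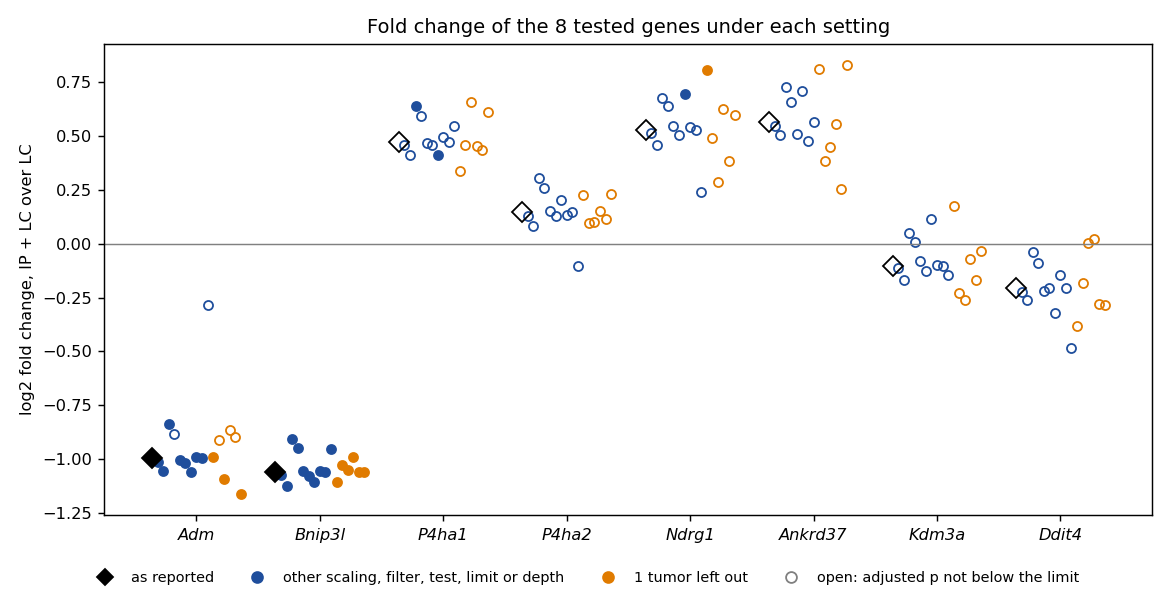
Log2 fold change (IP + LC over LC, vertical axis) of the 8 tested genes as reported (black diamond) and under the other settings of scaling, filter, test, limit and depth (blue) and with 1 tumor left out (orange); filled symbols have an adjusted p below the limit. Bnip3l is filled throughout, Adm is open in 5 of 16 settings, Ndrg1 and P4ha1 are filled in 2 each, and Ankrd37 could not be fitted in 2 of them.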

How the data were processed

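Bulk RNA barcoding libraries were prepared from whole tumors, 3 per model. Per the labels, the authors extracted UMIs with UMI-tools 1.1.1, trimmed reads with Trim Galore 0.6.7, used HISAT2 2.2.1 for alignment (GRCm38) and featureCounts 2.0.1 for gene assignment; the notes also name DESeq2. The deposited values are raw counts of UMIs per gene, 592733 to 1631066 per tumor, so low genes carry large counting error. Annotation release and strand use are not given in the sources used here. Genes were filtered by filterByExpr (minimum count 10, minimum total 15), scaled by TMM (factors 0.905 to 1.07) and tested with edgeR 4.0.16 in R 4.3.3, without a block; p-values were adjusted by Benjamini-Hochberg over 11240 genes with the study's limit of 0.1. Intervals are 95%. Alternatives (16) included limma 3.58.1 voom and DESeq2 1.42.0. Loci and overlaps came from GENCODE M21, near-identical copies from blastn 2.17.0+ (at least 81 nucleotides, 95% identity). The procedure was tested on simulated data. The labels number separate tumors without naming the animals, so p-values measure the spread between these samples, which may be technical.

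The 10 genes and all lists were chosen with earlier results of these data known. Named are the 10 genes, Hif1a, Epas1, Egln3, Vegfa and Slc2a1, from each list at most 2 called genes with the largest and 2 with the smallest log2 fold change among those with 10 or more UMIs in every tumor of the group with more, the 5 genes most like Bnip3l, and the most abundant marker of each cell type.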

Additional observations from a re-analysis of the deposited data

How the results depend on the processing

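The call of Bnip3l was kept under all 16 alternatives. The count of lower genes among the 10 was 1 without the filter on low counts and 1 in the thinned libraries, against 2 as reported, since the call of Adm was lost. The count of higher genes was 1 with library size only (P4ha1) and 2 by limma voom with quality weights, against 0. With 1 tumor left out, 0 to 1 of the 10 genes were called higher and 1 to 2 lower. Over all genes, limma voom with quality weights called 3180 higher and 3053 lower, and the thinned libraries 707 higher and 954 lower, against 1885 and 2203; with 1 tumor left out the counts ran from 897 to 3324 higher and from 1368 to 3367 lower, the most without LC replicate 1 and the fewest without IP + LC replicate 2. Of all calls 58.3% were higher with library size only against 46.1% as reported. Directions that turned belonged to genes that were not called. Kdm3a was at 0.05004 with library size only, 0.0098 without the filter, 0.11 by limma voom and, with 1 tumor left out, between -0.26 and 0.17 (the latter without LC replicate 1). P4ha2 was at -0.10 in the thinned libraries. Ddit4 lay between -0.38 and 0.024 with 1 tumor left out, positive in the absence of IP + LC replicate 1 and, at 0.0052, of LC replicate 3. The cause of these changes was not tested. Same-numbered tumors correlated at 0.026, -0.12 and 0.11 in their deviations from the group means, so the replicate numbers were not taken to pair them. With a replicate block the calls were again 0 higher and 2 lower (Bnip3l and Adm). For both ratios an exact sign-flip test over same-numbered tumors gave p = 0.5. It is another test than the permutation of tumors between groups, and its smallest possible p is larger. Ankrd37 did not pass the filter in the thinned libraries or at 10 UMIs in every library. Car9 and Bnip3, at 16 and 48 UMIs, had too few UMIs to be tested, and overlapping or near-identical genes make their counts uncertain. Calls in the other lists moved as well under the other 10 settings: mitophagy partners 1 to 5 higher and 4 to 8 lower, ATF4 4 to 10 and 2 to 3, glucocorticoid response 2 to 4 and 1 to 6, mTORC1 1 to 4 and 2 to 4, acid transport 1 to 3 and 4 to 5, HIF subunits and sensors 1 to 4 and 1, and fibrillar collagens 4 to 6 and 0 to 1.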
